A study of Mus musculus with 48 samples.

Results

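Peroxisomes are small organelles that shorten and modify fatty acids too long or too branched for mitochondria, and the genes that build them and work inside them were followed in the skin of mice given inhibitors of DGAT1, the enzyme that adds the last fatty acid in triglyceride synthesis. The set holds the peroxin genes (symbols of the form Pex and a number) and 30 further genes of peroxisomal fatty acid, bile acid and ether lipid metabolism. It names 44 genes, of which 14 are peroxins. The annotation of the array gave a probeset for 42 of them, 55 probesets of the 38385 on the array, and Acaa1a and Ech1 have none there. Hao2, a hydroxy acid oxidase, lay below the intensity filter, which left 41 genes of the 15320 tested. Where a gene had several probesets, its brightest one stood for the gene.

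Skin RNA was labelled as dorsal, from C57BL/6 mice of 8 weeks, taken after 14 days of treatment, with 1 array per mouse. The methods allow dorsal or ventral biopsies, so the site of each is not settled. The methods describe male mice made obese on a high-fat diet, which all groups share, dosed by mouth with compound or with the methylcellulose vehicle. Study 1 had vehicle, DGAT1 inhibitor compound 1 (Cpd1) and DGAT1 inhibitor compound 2 (Cpd2) (8 mice in each group). Study 2 had vehicle, Cpd2 and DGAT1 inhibitor compound 6 (Cpd6), and Study 4 had vehicle, Cpd6 and DGAT1 inhibitor compound 18 (Cpd18), each group with 4 mice. The study saw sebaceous gland atrophy with Cpd2 and Cpd6 (skin-positive) but not with Cpd1 and Cpd18 (skin-negative), and profiled skin RNA to find genes that mark it. Skin is a mixture of cells, and in such samples fewer cells of a type and less RNA per cell cannot be told apart. Values are log2 intensities, changes are differences of group means on that scale, and a gene was called when its limma p-value, adjusted over all 28789 probesets tested, was under 0.05. The number of arrays limits the precision.

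Peroxisomal beta-oxidation begins with an acyl-CoA oxidase, which passes electrons to oxygen and makes hydrogen peroxide that catalase removes. Branched fatty acids such as phytanic acid first lose a carbon by alpha-oxidation, and the shortened chains leave as carnitine esters or free acids. The same organelle starts the synthesis of ether lipids and plasmalogens. Peroxins insert membrane proteins, carry enzymes across the membrane and divide the organelle. In skin, peroxisomes are known to be abundant in the sebocytes of the sebaceous gland, whose product is a mixture of waxes, triglycerides and branched lipids.

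Muscle, hair follicle and sebaceous gland markers differed between the groups and stand beside the results. Over 21 skeletal muscle markers the mean level was 5.87 to 11.47 in the Cpd2 mice of Study 1 and 9.81 to 11.71 in the vehicle mice there, and 19 of the 21 markers were called lower (median -2.52). In the other 8 groups the mean was 9.81 to 11.72. Over the 10 growing hair follicle markers with a tested probeset, group means ran from 5.20 to 8.59 and single mice from 4.36 to 10.93, so that in Study 4 the Cpd6 mice lay at 4.64 to 6.37 and the vehicle mice at 4.81 to 10.29. In Study 2 the hair follicle mean was 4.99 to 10.80 with vehicle, 4.71 to 7.67 with Cpd2 and 4.62 to 6.36 with Cpd6 (median marker difference -3.25 and -3.99, none called). The sebaceous gland markers (11 of 12 with a probeset) averaged 8.62 ± 0.38 (SD, n = 8) with Cpd2 against 9.39 ± 0.31 with vehicle in Study 1, and 8.57 ± 0.15 (SD, n = 4) with Cpd6 against 9.08 ± 0.06 with vehicle in Study 4. In Study 2 they averaged 9.19 ± 0.15 (SD, n = 4) with vehicle, 8.92 ± 0.13 with Cpd2 and 8.70 ± 0.20 with Cpd6. These means include Scd3, which the study chose as a biomarker on the mice of Studies 1 and 2. Dgat1 itself was called only with Cpd2 in Study 1 (-0.60, adjusted p = 0.00636 by limma).

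The upstream sequences of Acox2 and Acox3, the members with the largest mean change under Cpd2 and Cpd6, and of Pex11g, the peroxin called most often, are shown first. They are the 250 bases before the start site in RefSeq (GRCm38.p6), written 5′ to 3′ on the strand of the gene, and capitals mark 3 motifs searched on both strands, the nuclear receptor hexamer AGGTCA, the GC box GGGCGG and CCAAT. Acox2 lies on chromosome 14 on the minus strand (chr14:8259020-8259269 for these bases), Acox3 on chromosome 5 on the plus strand (chr5:35582784-35583033) and Pex11g on chromosome 8 on the minus strand (chr8:3467649-3467898).
Acox2: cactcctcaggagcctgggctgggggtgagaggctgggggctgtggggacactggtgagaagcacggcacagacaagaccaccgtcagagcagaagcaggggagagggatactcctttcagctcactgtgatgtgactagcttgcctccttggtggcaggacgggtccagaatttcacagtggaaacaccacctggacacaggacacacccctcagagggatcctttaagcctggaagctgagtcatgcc
Acox3: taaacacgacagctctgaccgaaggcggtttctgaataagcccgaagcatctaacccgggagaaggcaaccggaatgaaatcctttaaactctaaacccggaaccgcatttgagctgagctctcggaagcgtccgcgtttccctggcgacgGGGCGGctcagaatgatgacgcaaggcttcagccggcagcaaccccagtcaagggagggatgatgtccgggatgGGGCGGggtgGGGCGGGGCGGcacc
Pex11g: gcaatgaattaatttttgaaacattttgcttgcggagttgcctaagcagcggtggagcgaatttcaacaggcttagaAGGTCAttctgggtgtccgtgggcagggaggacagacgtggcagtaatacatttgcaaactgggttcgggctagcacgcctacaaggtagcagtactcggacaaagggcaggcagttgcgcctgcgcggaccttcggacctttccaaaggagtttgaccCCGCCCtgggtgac
Acox2 has 2 start sites in the table, and the window shown, that of the annotated gene end, held none of these motifs and 3 CpG steps (the other window holds a CCAAT), while the Acox3 window held 4 GC boxes, the last 2 of which share a base, and 21 CpG steps. Pex11g carried the hexamer, beginning 173 bases before the start site, and 1 GC box. Windows were found for 32 of the 41 genes, 38 windows in all. The DR1 element, in which the hexamer is repeated after 1 base and which PPAR with RXR is known to bind, was in none of the 38, against 0.0335% of the 32851 windows of all genes. The hexamer, which any DR1 also holds, was in 10.5% against 14.0%, the GC box in 63.2% against 32.7% and CCAAT in 44.7% against 33.8%. No match says only that these letters are not in these windows.

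Some peroxisomal genes fell with the skin-positive compounds, 3 of them (Acox2, Acox3 and Crat) by over 2-fold in at least 1 comparison, and most of the 41 were not called. With Cpd2 in Study 1, 12 of the 41 genes were lower and 1, Slc25a17, was higher, so that 31.7% were called against 15.8% of all genes. Lower were 29.3% of members against 7.15% of all genes, and 8.69% of all genes were higher. With Cpd6 in Study 4, 10 genes were lower and none higher, 24.4% against 12.2% called and 8.88% lower among all genes. The median change of the members was -0.20 in the first and -0.15 in the second, against 0.04 and -0.04 over all genes. In Study 2, Cpd6 lowered 3 genes (7.32% against 0.574% called and 0.437% lower among all genes) and Cpd2 lowered 1 (2.44% against 0.202% called and 0.137% lower), and neither raised any. The 3 were Acox2, Acox3 and Crat, and the 1 was Acox2. The study chose Acox2 and Crat as biomarkers for their change in the mice of Studies 1 and 2. Their part in the counts of these 2 studies is therefore not independent evidence. In Study 4 all Cpd6 mice were below all vehicle mice in 10 of 41 members against 13.9% of all genes. In Study 2 this held for 5 members with Cpd6 (3.07% of all genes) and 3 with Cpd2 (1.41%). In Study 1 no member separated with Cpd2 in either direction (0.529% of all genes lower, 2.01% higher). The genes lower with Cpd2 in Study 1 and with Cpd6 in Study 4 had 7 in common, 58.3% of the former and 70% of the latter, and these 2 comparisons share no mice. They were Acox2, Acox3, Amacr, Eci2, Far1, Pex11g and Phyh. The overlap of the 2 comparisons over all genes was not computed, so whether these shares are particular to the members cannot be said.

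**Figure D1:**
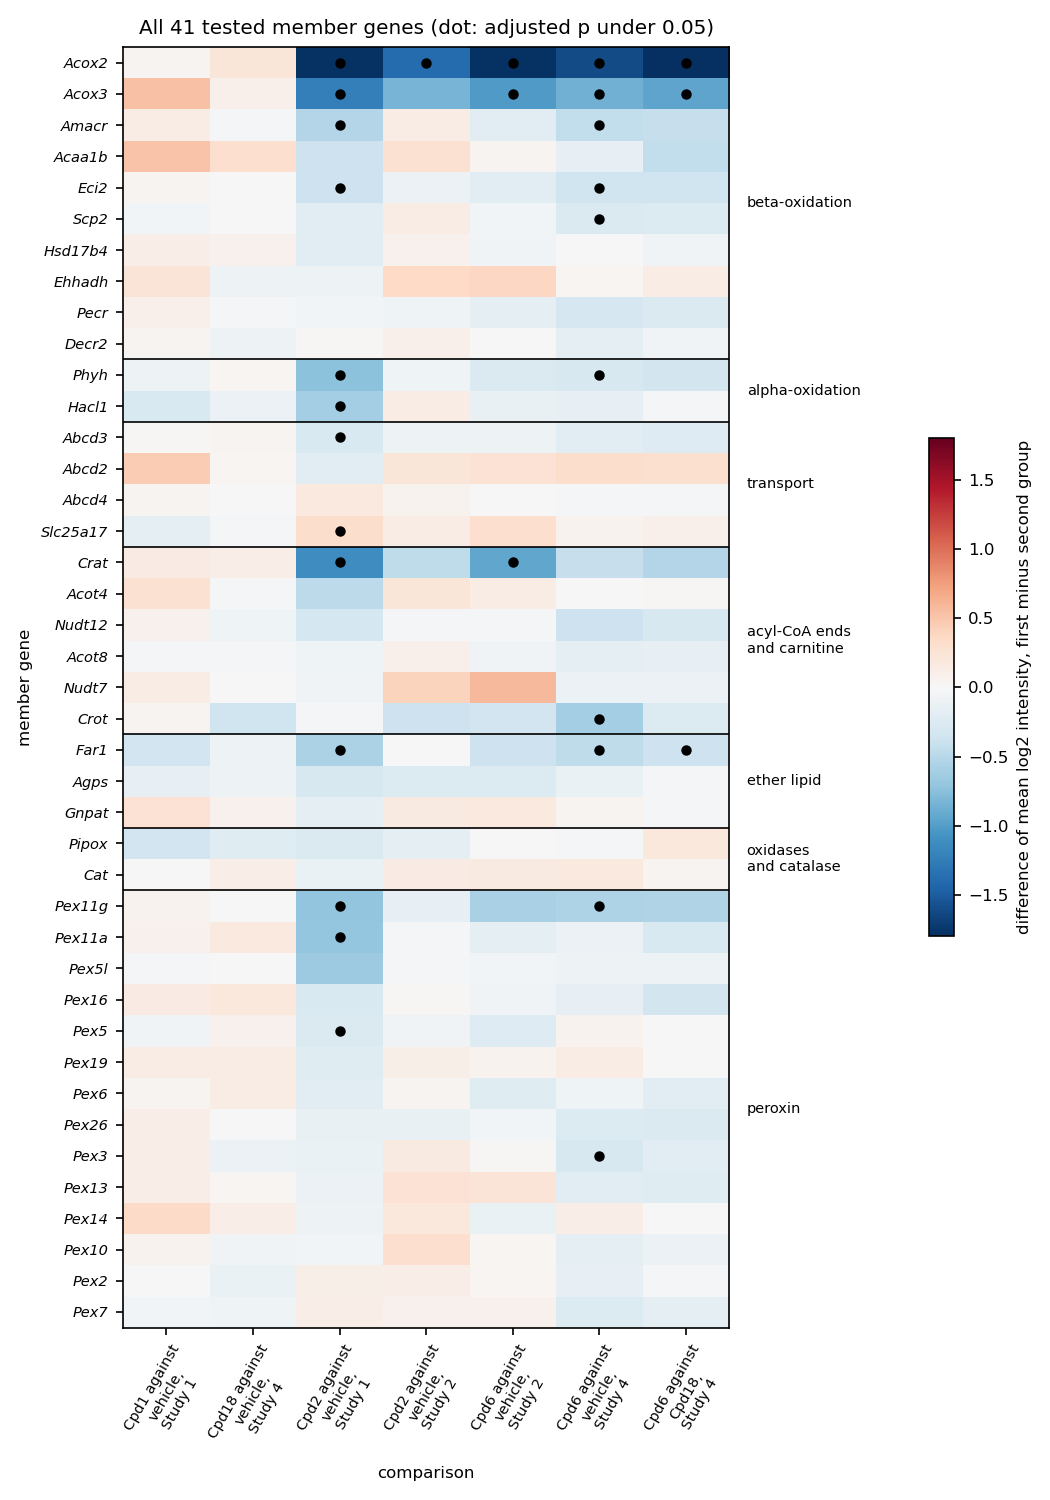
Difference of mean log2 intensity (colour, first group minus second) for the 41 tested member genes in rows, grouped by role, in 7 comparisons in columns, with a dot where the adjusted p was under 0.05. Dots lie in the skin-positive columns and in Cpd6 against Cpd18, with Acox2 called in all 5 of these columns, and none lies in the Cpd1 and Cpd18 columns.

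With the skin-negative compounds no member was called. The labels give no doses. For its histology the study states a lower dose of Cpd1 than of Cpd2, while its section on exposure states a common dose for the compounds. The dose of Cpd1 behind these arrays in Study 1 is thus not settled, and Cpd1 was not compared with Cpd2. A lack of change that belongs to Cpd1 itself and one that belongs to a lower dose cannot be told apart. Cpd1 gave 0 of 41 against 0.47% of all genes (6 members at an unadjusted p under 0.05), and member changes ran from -0.35 to 0.52 with a median of 0.07. Among the 41, Acox2 and Crat were chosen by the study partly for a lack of change with Cpd1. Cpd18 gave 0 of 41 against 0.00653% (3 members at an unadjusted p under 0.05).

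Beta-oxidation held the largest changes: 4 of its 10 tested genes were lower with Cpd2 in Study 1, 1 with Cpd2 in Study 2, 2 with Cpd6 in Study 2 and 5 with Cpd6 in Study 4, where 7.15%, 0.137%, 0.437% and 8.88% of all genes were lower. Acox2, the oxidase of branched side chains such as those of bile acid intermediates, whose upstream bases are given above, was the member with the largest mean change. In Study 1 its level was 8.12 to 9.67 (median 9.40) in vehicle mice, 8.86 to 9.68 (median 9.30) with Cpd1 and 6.51 to 8.67 (median 7.34) with Cpd2. Only the lowest vehicle mouse overlapped the Cpd2 mice, and the Cpd1 mice lay in the vehicle range or just above it. In Study 2 the vehicle mice were at 8.81, 8.43, 9.46 and 8.46, the Cpd2 mice at 7.31, 7.32, 7.43 and 7.53, and the Cpd6 mice at 6.82, 7.37, 6.59 and 7.25. In Study 4 the vehicle mice were at 8.40, 8.31, 8.19 and 8.83, the Cpd6 mice at 6.58, 6.87, 7.26 and 6.58, and the Cpd18 mice at 8.39, 8.85, 8.64 and 8.74. In Studies 2 and 4 every mouse on Cpd2 or Cpd6 was below every vehicle mouse.

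The fall of Acox2 was 3.44-fold with Cpd2 in Study 1 (-1.78, SE 0.24, adjusted p = 1.41e-05 by limma), 2.62-fold with Cpd2 in Study 2 (-1.39, SE 0.22, adjusted p = 0.0200), 3.44-fold with Cpd6 in Study 2 (-1.78, SE 0.22, adjusted p = 0.000918) and 3.05-fold with Cpd6 in Study 4 (-1.61, SE 0.17, adjusted p = 9.25e-05). The difference was 0.04 with Cpd1 (95% interval -0.44 to 0.53) and 0.22 with Cpd18 (-0.13 to 0.58). Acox2 is among the biomarker genes that the study chose on the mice of Studies 1 and 2, so its direction there is not independent evidence, while the mice of Study 4 had no part in that choice. The choice also removed genes that changed with Cpd1 in Study 1, so the small Cpd1 difference is not independent evidence either. Its call with Cpd2 in Study 2 was lost when Cpd2 replicate 1, 2 or 3 was left out.

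Acox3, the oxidase of pristanic acid and other 2-methyl chains, averaged 10.22 ± 0.36 (SD, n = 8) in the vehicle mice of Study 1. There its level was 9.41 to 10.50 (median 10.38) with vehicle, 10.52 to 10.95 (median 10.72) with Cpd1 and 8.67 to 9.59 (median 8.96) with Cpd2. In Study 2 it was 10.54, 10.24, 10.29 and 9.79 with vehicle, 9.19, 9.22, 9.44 and 9.64 with Cpd2, and 8.98, 9.44, 9.05 and 9.30 with Cpd6. In Study 4 it was 10.58, 10.53, 10.32 and 10.63 with vehicle, 9.46, 9.66, 9.82 and 9.68 with Cpd6, and 10.53, 10.71, 10.69 and 10.49 with Cpd18. All Cpd1 mice lay above all vehicle mice, as in 0.202% of all genes, and in Studies 2 and 4 all mice on skin-positive compounds lay below their vehicle mice. Acox3 fell 2.34-fold with Cpd2 in Study 1 (-1.23, SE 0.13, adjusted p = 5.23e-07 by limma), 2.03-fold with Cpd6 in Study 2 (-1.02, SE 0.16, adjusted p = 0.00811) and 1.82-fold with Cpd6 in Study 4 (-0.86, SE 0.09, adjusted p = 9.83e-05). With Cpd2 in Study 2 the difference was -0.84 (adjusted p = 0.0543) and with Cpd1 0.52 (adjusted p = 0.0734). The other 2 Acox3 probesets, which are dimmer, were not called in any of these comparisons.

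**Figure D2:**
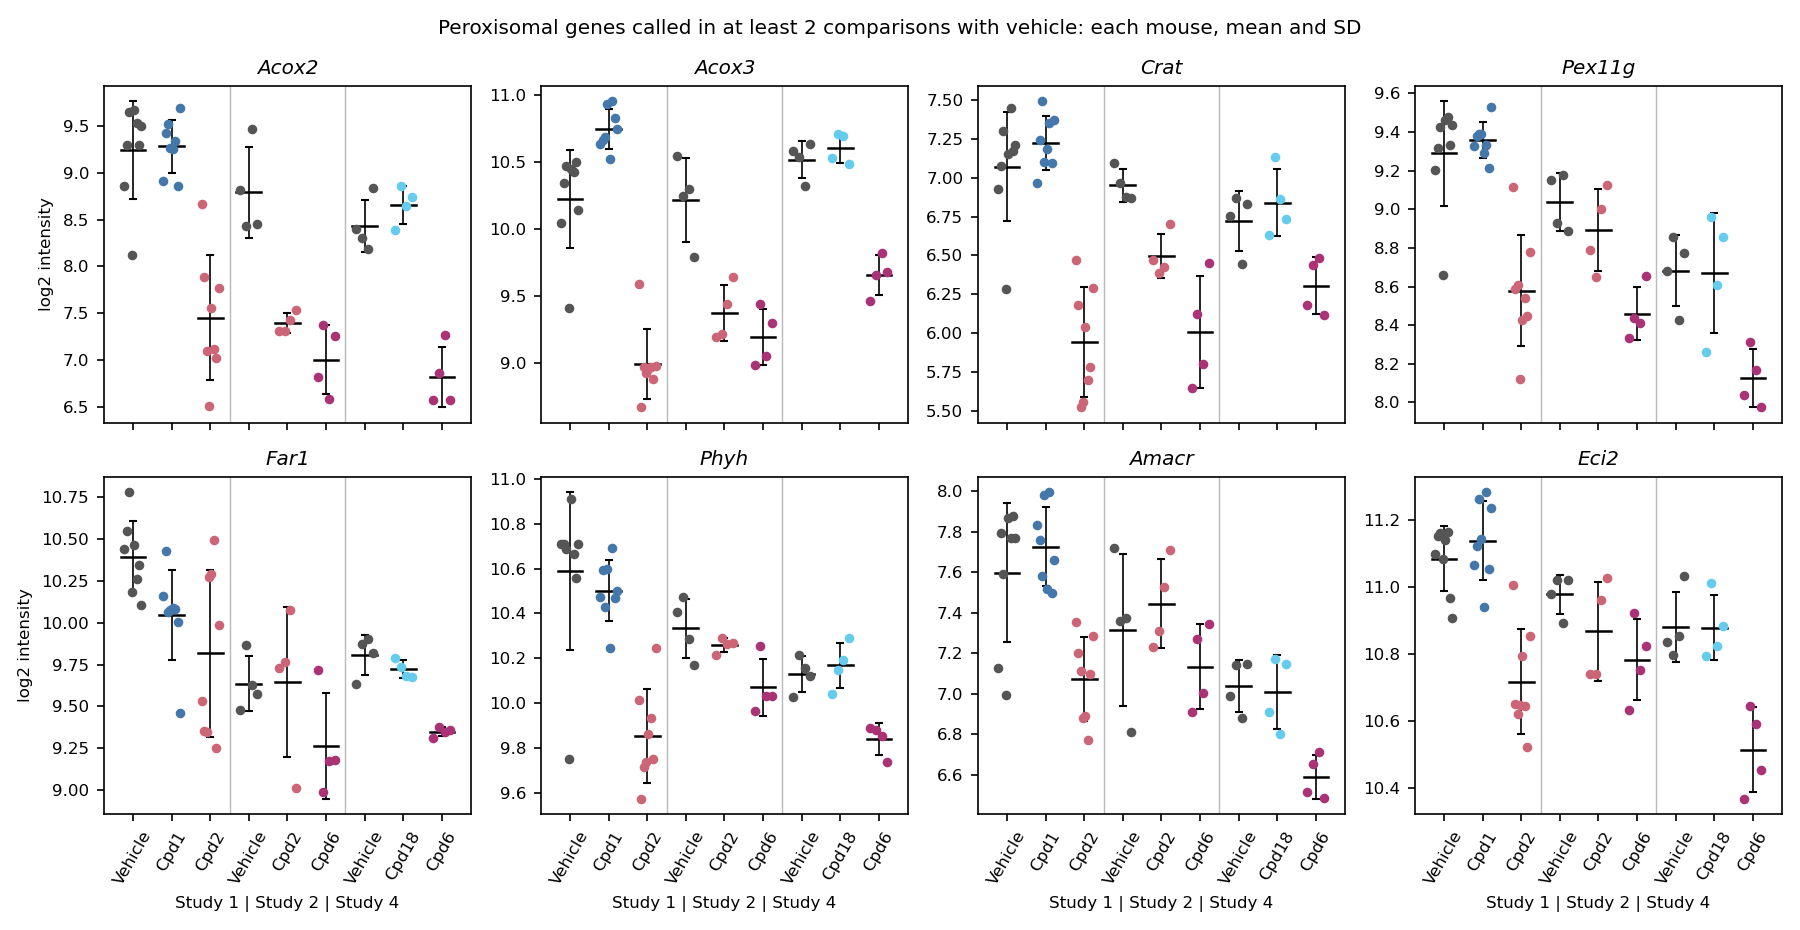
Log2 intensity of the 8 member genes called in at least 2 comparisons with vehicle, 1 point per mouse, with the group mean (horizontal line) and SD (vertical bar), for the 9 groups of Studies 1, 2 and 4. Acox2 and Acox3 lie lower with Cpd2 and Cpd6 in each study, and for Acox2 the Cpd1 and Cpd18 mice overlap their vehicle mice. The study chose Acox2 partly for a lack of change with Cpd1.

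Amacr is the racemase that turns 2-methyl chains into the form the oxidases accept. In Study 1 it was at 6.99 to 7.88 (median 7.77) with vehicle, 7.50 to 7.99 (median 7.71) with Cpd1 and 6.77 to 7.35 (median 7.10) with Cpd2, with some overlap of Cpd2 and vehicle. It fell by 0.52 with Cpd2 in Study 1 (SE 0.13, adjusted p = 0.00620 by limma) and by 0.45 with Cpd6 in Study 4 (SE 0.12, adjusted p = 0.0257), the latter call lost without Cpd6 replicate 1 or 4 or without vehicle replicate 2 or 4 (adjusted p up to 0.0761). In Study 4 its vehicle mice were at 6.99, 7.14, 6.88 and 7.15, its Cpd6 mice at 6.51, 6.65, 6.71 and 6.48, and its Cpd18 mice at 6.91, 7.17, 6.80 and 7.15, with no overlap of Cpd6 and vehicle. In Study 2 it was at 7.72, 7.36, 7.37 and 6.81 with vehicle, 7.23, 7.31, 7.53 and 7.71 with Cpd2, and 6.91, 7.27, 7.003 and 7.35 with Cpd6, all overlapping (0.13 with Cpd2 and -0.18 with Cpd6).

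Eci2, the isomerase that repositions double bonds of unsaturated chains, changed alike in Studies 1 and 4, by -0.37 with Cpd2 (SE 0.06, adjusted p = 0.000355 by limma) and by -0.37 with Cpd6 (SE 0.08, adjusted p = 0.0117). In Study 1 its level was 10.91 to 11.17 with vehicle, 10.94 to 11.28 with Cpd1 and 10.52 to 11.01 with Cpd2, and in Study 2 the 3 groups overlapped, between 10.63 and 11.03. In Study 4 it was at 10.84, 10.80, 10.85 and 11.03 with vehicle, 10.37, 10.64, 10.59 and 10.45 with Cpd6, and 10.80, 11.01, 10.82 and 10.88 with Cpd18. Scp2, which encodes both the last thiolase of branched chains and a sterol carrier, was called only with Cpd6 in Study 4 (-0.26, adjusted p = 0.0147, lost without Cpd6 replicate 4), and its dimmer probeset was not. The other 5 tested genes of this role, Acaa1b, Hsd17b4, Ehhadh, Pecr and Decr2, were called in no comparison with vehicle. Ehhadh, the bifunctional enzyme of straight chains, differed by -0.10 to 0.38 and Hsd17b4, that of branched chains, by -0.20 to 0.12. Acaa1b has a close copy in Acaa1a, and the probes may not tell them apart.

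Both tested genes of alpha-oxidation were lower with Cpd2 in Study 1. Phyh, the hydroxylase that starts the breakdown of phytanic acid, was at 9.75 to 10.91 (median 10.70) with vehicle, 10.25 to 10.69 (median 10.49) with Cpd1 and 9.58 to 10.25 (median 9.81) with Cpd2, a difference of -0.73 (SE 0.12, adjusted p = 0.000121 by limma). In Study 4 it was at 10.03, 10.22, 10.16 and 10.12 with vehicle and 9.89, 9.88, 9.86 and 9.74 with Cpd6 (-0.29, SE 0.07, adjusted p = 0.0214, lost without Cpd6 or vehicle replicate 4), without overlap, and at 10.04, 10.15, 10.19 and 10.29 with Cpd18. In Study 2 it was at 10.40, 10.47, 10.29 and 10.17 with vehicle and 10.22, 10.29, 10.26 and 10.27 with Cpd2 (-0.07, 95% interval -0.26 to 0.11), and at 9.97, 10.26, 10.03 and 10.03 with Cpd6 (-0.26, adjusted p = 0.215). The groups of Study 2 overlapped for Phyh. Hacl1, the lyase that removes the carbon, fell by 0.61 with Cpd2 in Study 1 (SE 0.15, adjusted p = 0.00551) and was called in no other comparison with vehicle, with 0.14 for Cpd2 in Study 2 and -0.15 for Cpd6 in Study 4.

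Of the 6 genes grouped as acyl-CoA hydrolysis, carnitine transfer and nucleotide hydrolysis, Crat and Crot were called. Crat, carnitine acetyltransferase, which is also known to be abundant in mitochondria of muscle, was at 6.29 to 7.45 (median 7.16) with vehicle, 6.97 to 7.49 (median 7.21) with Cpd1 and 5.53 to 6.47 (median 5.91) with Cpd2 in Study 1. In Study 2 it was at 7.09, 6.97, 6.87 and 6.87 with vehicle, 6.47, 6.39, 6.43 and 6.70 with Cpd2, and 5.65, 6.12, 5.81 and 6.45 with Cpd6. In Study 4 it was at 6.75, 6.87, 6.44 and 6.83 with vehicle, 6.18, 6.44, 6.48 and 6.12 with Cpd6, and 6.63, 7.13, 6.86 and 6.73 with Cpd18. In Study 2 all treated mice lay below the vehicle mice, while in Studies 1 and 4 the groups overlapped at their edges. Crat fell 2.18-fold with Cpd2 in Study 1 (-1.13, SE 0.15, adjusted p = 1.38e-05 by limma) and 1.92-fold with Cpd6 in Study 2 (-0.94, SE 0.17, adjusted p = 0.0232), and the latter call was lost in 5 of the 8 fits that left out 1 mouse. The difference was -0.45 with Cpd2 in Study 2 (adjusted p = 0.515) and -0.42 with Cpd6 in Study 4 (adjusted p = 0.0677). Crat, too, is a biomarker gene that the study chose on Studies 1 and 2, where its direction is not independent evidence. Neither is its lack of change with Cpd1, which was part of the choice.

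Crot, the octanoyltransferase, was lower with Cpd6 in Study 4 (-0.61, SE 0.14, adjusted p = 0.0179 by limma, lost without Cpd6 or vehicle replicate 4), where the vehicle mice were at 8.15, 7.55, 8.10 and 8.27, the Cpd6 mice at 7.52, 7.41, 7.57 and 7.14 and the Cpd18 mice at 7.57, 7.63, 7.66 and 7.77. Its Cpd6 and Cpd18 mice both overlapped the lowest vehicle mouse, and its dimmer probeset moved the other way without being called (0.41, adjusted p = 0.0568), so the direction rests on the probeset. The thioesterases Acot4 and Acot8, Nudt7, which cleaves CoA, and Nudt12, which hydrolyses NADH, were not called. Among them the largest difference from vehicle was that of Nudt7 with Cpd6 in Study 2 (0.58, adjusted p = 0.0758). Acot4 belongs to a cluster of very similar genes, which its probes may not separate.

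Of the 3 ether lipid genes, Far1, the reductase that supplies fatty alcohols, was called. In Study 4 it was at 9.63, 9.87, 9.90 and 9.82 with vehicle, 9.31, 9.37, 9.35 and 9.36 with Cpd6, and 9.79, 9.74, 9.68 and 9.68 with Cpd18, so that the Cpd6 mice lay close together below all others (-0.46, SE 0.07, adjusted p = 0.00238 by limma). In Study 1 it fell by 0.57 with Cpd2 (SE 0.16, adjusted p = 0.0181), but the spread was wide, 9.25 to 10.49 with Cpd2 against 10.11 to 10.78 with vehicle and 9.46 to 10.43 with Cpd1. In Study 2 it differed by 0.01 with Cpd2 and -0.37 with Cpd6 (adjusted p = 0.502), with values of 9.48, 9.86, 9.63 and 9.57 for vehicle, 9.73, 9.77, 10.07 and 9.02 for Cpd2, and 9.72, 8.99, 9.18 and 9.18 for Cpd6. Gnpat and Agps, the acyl and alkyl transferases that make the ether bond, were not called, with differences from -0.29 to 0.26.

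Among the 14 peroxins 3 were lower with Cpd2 in Study 1 (21.4%, against 7.15% of all genes) and 2 with Cpd6 in Study 4 (14.3%, against 8.88%, near the background), none with either compound in Study 2 and none higher anywhere. The largest changes were in the Pex11 family, which elongates and divides peroxisomes. Pex11g, whose upstream bases are given above, was at 8.66 to 9.48 (median 9.38) with vehicle, 9.21 to 9.53 (median 9.36) with Cpd1 and 8.12 to 9.12 (median 8.56) with Cpd2 in Study 1. In Study 2 it was at 9.15, 8.93, 9.18 and 8.89 with vehicle, 8.79, 8.65, 9.002 and 9.13 with Cpd2, and 8.34, 8.44, 8.41 and 8.66 with Cpd6. In Study 4 it was at 8.68, 8.85, 8.43 and 8.77 with vehicle, 8.04, 8.32, 8.17 and 7.98 with Cpd6, and 8.26, 8.96, 8.61 and 8.86 with Cpd18. The Cpd6 mice lay below all vehicle mice in both studies, while the Cpd2 mice of Study 2 overlapped theirs. Pex11g fell by 0.71 with Cpd2 in Study 1 (SE 0.11, adjusted p = 0.000114 by limma) and by 0.56 with Cpd6 in Study 4 (SE 0.14, adjusted p = 0.0243). The difference with Cpd6 in Study 2 was -0.58 (SE 0.12, adjusted p = 0.0633). The call in Study 4 was lost without Cpd6 replicate 1 or 4 or without vehicle replicate 1 or 4.

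Pex11a fell by 0.69 with Cpd2 in Study 1 (SE 0.10, adjusted p = 6.72e-05 by limma), and its second probeset by 0.60 (adjusted p = 0.00332). It was at 9.14 to 10.22 with vehicle, 9.80 to 10.13 with Cpd1 and 8.91 to 9.42 with Cpd2 there. In the other 3 skin-positive comparisons it differed by -0.16 to -0.04 and was not called. Pex5, the receptor that imports most peroxisomal enzymes, fell by 0.26 with Cpd2 in Study 1 (adjusted p = 0.0390), a call lost in 11 of the 16 fits that left out 1 mouse, and differed by 0.06 with Cpd6 in Study 4. Pex3, the anchor for membrane protein insertion, fell by 0.30 with Cpd6 in Study 4 (SE 0.07, adjusted p = 0.0143), where the Cpd6 mice were at 9.70, 9.60, 9.75 and 9.64 and the vehicle mice at 9.94, 9.93, 9.95 and 10.05. The other 10 peroxins, which include the docking factors Pex13 and Pex14, the ring-finger factors Pex2 and Pex10 and the recycling ATPase Pex6, were called in no comparison with vehicle. The lowest of their differences was -0.65, for the Pex5-like gene Pex5l with Cpd2 in Study 1 (adjusted p = 0.163), and the highest 0.34, for Pex14 with Cpd1 (adjusted p = 0.186).

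Among the 4 transporters the directions were mixed. Slc25a17, a carrier of CoA and other cofactors across the peroxisomal membrane, was the member that rose, by 0.32 with Cpd2 in Study 1 (SE 0.08, adjusted p = 0.00631 by limma), from 9.86 to 10.54 in vehicle mice to 10.39 to 10.72. With Cpd6 in Study 2 all its values were above vehicle (0.31, adjusted p = 0.249), as in 4.5% of all genes. Abcd3, the importer of branched and bile acid intermediates, fell by 0.28 with Cpd2 in Study 1 (SE 0.06, adjusted p = 0.00160). The importers Abcd2 and Abcd4 were not called. Catalase, the peroxide-removing enzyme, and Pipox, the oxidase of pipecolic acid, were not called either. Cat differed by -0.12 to 0.17 over the 6 comparisons with vehicle. In all, 25 of the 41 genes were called in no comparison with vehicle, and their differences ran from -0.65 to 0.58.

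Cpd6 and Cpd18 were given in the same study, so their mice could be compared directly, although an equal dose need not be an equal exposure of the skin. With Cpd6, 3 genes were lower than with Cpd18, 7.32% of the members against 0.692% of all genes called and 0.64% lower, and none was higher. They were Acox2 (-1.83, 95% interval -2.19 to -1.48, adjusted p = 2.27e-05 by limma), Acox3 (-0.95, -1.14 to -0.76, adjusted p = 3.69e-05) and Far1 (-0.37, -0.53 to -0.22, adjusted p = 0.0277). For 13 of the 41 members every Cpd6 mouse lay below every Cpd18 mouse, against 4.79% of all genes. These included Crat (-0.53, -0.83 to -0.24, adjusted p = 0.143), Phyh (-0.33, -0.48 to -0.18, adjusted p = 0.0616) and Eci2 (-0.36, -0.53 to -0.20, adjusted p = 0.0576), which were not called. The call of Far1 was lost whichever of the 8 mice was left out. The hair follicle mean was 4.64 to 6.37 in the Cpd6 mice and 5.12 to 9.50 in the Cpd18 mice (median marker difference -3.61, none called). With that mean as a covariate, 2 of the 3 calls were kept.

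**Figure D3:**
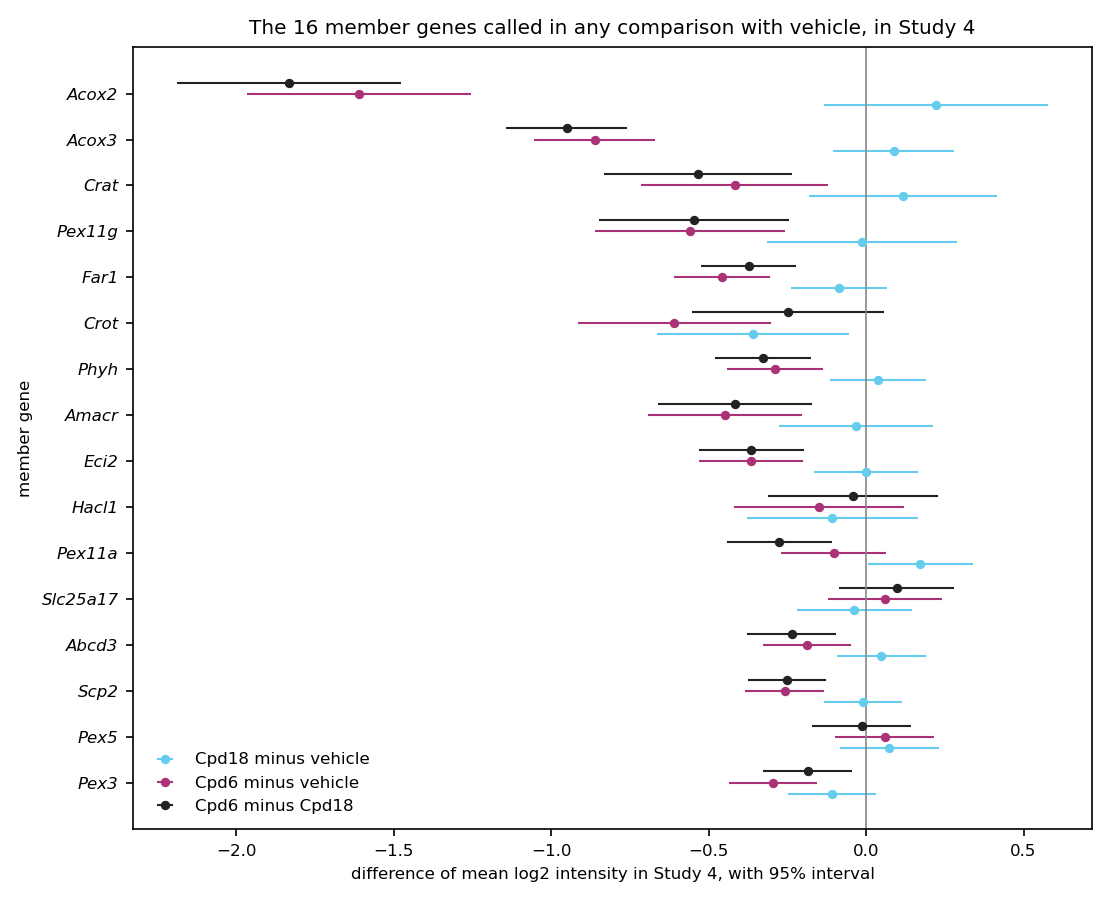
Differences of mean log2 intensity in Study 4 (x axis) with 95% intervals, for the 16 member genes called in any comparison with vehicle, as Cpd18 minus vehicle, Cpd6 minus vehicle and Cpd6 minus Cpd18. For Acox2 and Acox3 both Cpd6 intervals lie below 0 and the Cpd18 interval spans 0, while Crot is below 0 with both compounds against vehicle.

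Both skin-positive compounds were given in Study 2. No member was called between Cpd6 and Cpd2 (limma, against 0% of all genes, with 5 members at an unadjusted p under 0.05). The differences were -0.39 for Acox2 (95% interval -0.86 to 0.08), -0.18 for Acox3 (-0.51 to 0.15), -0.49 for Crat (-0.85 to -0.13, adjusted p = 0.435) and -0.43 for Pex11g (-0.69 to -0.17, adjusted p = 0.364). The intervals of Crat and Pex11g lie below 0, and those of Acox2 and Acox3 span it.

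The same compound could be compared between studies through its own vehicle group. For Cpd2, the change in Study 1 was lower than in Study 2 for Phyh (-0.66, SE 0.16, adjusted p = 0.0430 by limma) and Pex11a (-0.65, SE 0.16, adjusted p = 0.0430; its other probeset -0.63, adjusted p = 0.0864), 4.88% of members against 0.783% of all genes called and 0.483% lower. Both calls were absent when 3 Cpd2 mice with little muscle signal (Study 1) were left out, each was lost in most fits that left out 1 mouse (16 of 24 for Pex11a, 15 of 24 for Phyh), and 11 members were called without vehicle replicate 4 of Study 1. For Acox2 (-0.39, 95% interval -1.11 to 0.33) and Acox3 (-0.39, -0.79 to 0.02) the difference between studies was not called. For Cpd6, no member differed between Studies 4 and 2 (0 against 0% of all genes, 2 at an unadjusted p under 0.05), with 0.17 for Acox2 (-0.66 to 1.00) and 0.02 for Pex11g (-0.41 to 0.45).

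Single mice bear on Study 1. With the 3 Cpd2 mice of least muscle signal left out, 8 of the 13 calls were kept, Acox2, Acox3, Crat, Phyh, Pex11g, Pex11a, Eci2 and Abcd3, with Acox2 at -1.44 and Acox3 at -1.19. With the mean of the muscle markers as a covariate, 6 were kept, Acox2 (-1.28), Acox3 (-1.04), Crat (-0.81), Pex11g (-0.51), Pex11a (-0.50) and Phyh (-0.49). Vehicle replicate 4 of Study 1, lowest of its group in muscle markers (9.81) and in sebaceous gland markers (8.73) and highest in hair follicle markers (10.93), was the lowest vehicle mouse for 12 of the 16 called genes. Without it 19 members were called with Cpd2, with Acox3 at -1.34 and Crat at -1.24. With the hair follicle mean as a covariate, the Study 2 calls of Acox2 with Cpd2 (adjusted p = 0.161) and Crat with Cpd6 (adjusted p = 0.215) were lost, while those of Acox2 and Acox3 with Cpd6 were kept (adjusted p = 0.0273 and 0.0212). In Study 4, with that covariate, 4 of the 10 Cpd6 calls were kept, Acox2 (-1.42), Acox3 (-0.82), Far1 (-0.52) and Scp2 (-0.32).

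**Figure D4:**
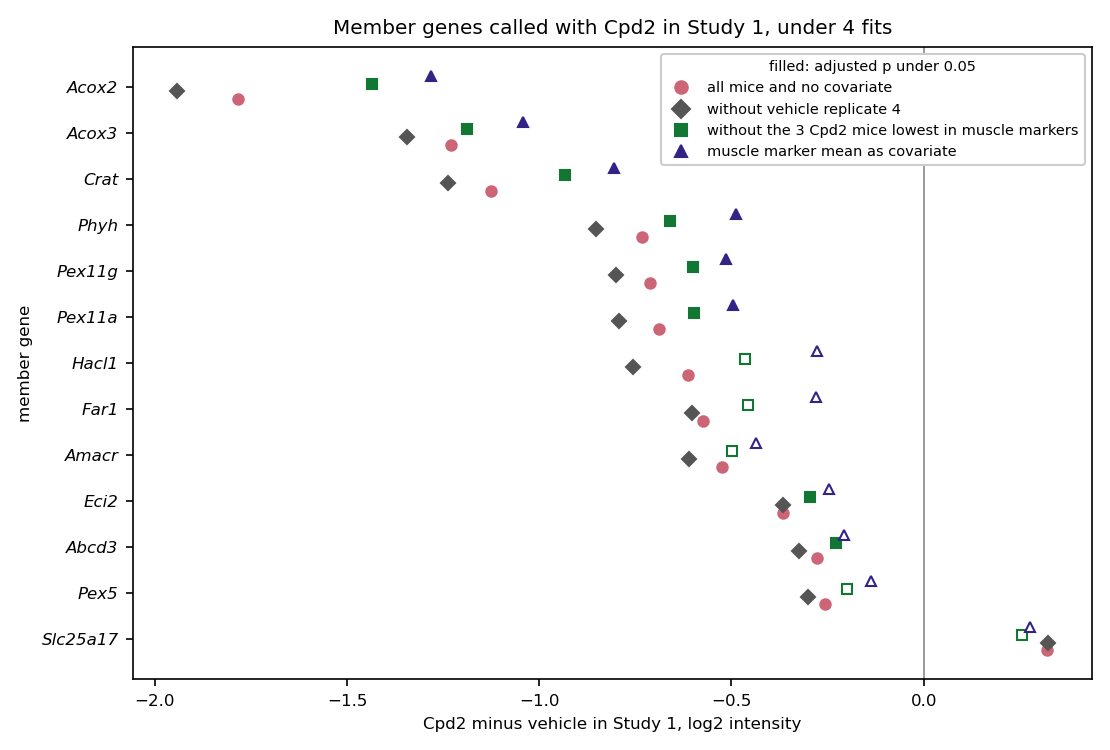
Cpd2 minus vehicle in Study 1 (x axis, log2 intensity) for the 13 member genes called there, from 4 fits (all mice, without vehicle replicate 4, without the 3 Cpd2 mice of least muscle signal, and with the muscle marker mean as covariate), with filled symbols for an adjusted p under 0.05. The changes are smaller in the fits that take muscle into account, and Acox2, Acox3, Crat, Phyh, Pex11g and Pex11a stay filled in all 4.

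Some sebaceous gland markers were lower in the same comparisons as the members, and none was called higher. Of the 11 tested, 4 were lower with Cpd2 in Study 1, 1 with Cpd2 and 2 with Cpd6 in Study 2, 6 with Cpd6 in Study 4 and none with Cpd1 or Cpd18. Over all genes 7.15%, 0.137%, 0.437% and 8.88% were lower in the first 4 of these comparisons. The median differences of the 11 markers there were -0.44, -0.08, -0.18 and -0.23. Scd3, a desaturase of sebocytes, changed by -3.68, -1.81, -2.37 and -2.11 in the 4 skin-positive comparisons (Cpd2 in Study 1 and 2, then Cpd6 in Study 2 and 4). It, too, is a biomarker gene that the study chose on Studies 1 and 2. There its direction, its part in the marker counts and its lack of a call with Cpd1 are not independent evidence. In the same order Awat1, a wax synthase, changed by -1.03, -0.57 (not called), -1.005 and -0.98. Krt79 differed the other way, by 0.22, 0.51, 0.45 and 0.19, and was not called. The macrophage markers were lower with Cpd6 in Study 4 (8 of 10, median -0.77), with a median of -0.72 and no call for Cpd18, and 5 of 7 differentiated keratinocyte markers were higher with Cpd2 in Study 1 and 2 with Cpd6 in Study 4. The adipocyte markers gave 1 call, higher with Cpd6 in Study 4. The part of each in the changes of the peroxisomal genes was not tested.

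Most other genes of peroxisomal proteins were not called. Of 42 listed, 33 were tested, and 8 were lower with Cpd2 in Study 1 (7.15% of all genes were lower), none with Cpd2 in Study 2, 1 with Cpd6 in Study 2 and 6 with Cpd6 in Study 4 (8.88% of all genes), none higher and none called with Cpd1 or Cpd18. Pxmp4, a membrane protein of peroxisomes, fell by 1.21 with Cpd2 in Study 1, by 0.93 with Cpd6 in Study 2 and by 0.83 with Cpd6 in Study 4, and was 1.04 lower with Cpd6 than with Cpd18. The thioesterase Acot5 fell by 1.13 with Cpd2 in Study 1 and by 0.57 with Cpd6 in Study 4. Uox, urate oxidase, fell by 1.46 with Cpd6 in Study 4, and Ddo, the D-aspartate oxidase, by 1.15 with Cpd2 in Study 1. Uox also differed by -0.96 with the skin-negative Cpd18, and by -0.50 between Cpd6 and Cpd18, neither called. In Study 2 Uox differed by -1.285 with Cpd2 and by -1.60 with Cpd6, not called. Ddo differed the other way with Cpd2 in Study 2 (0.16) and with Cpd6 in Studies 2 and 4 (0.25 and 0.22), not called. The medians over the 33 genes were -0.10 and -0.15 in Study 1 with Cpd2 and Study 4 with Cpd6.

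PPAR receptors, their partners and their known targets, many of which lie outside the peroxisome, did not move one way. Of 21 tested, 4 were lower with Cpd2 in Study 1 (Acot1, Pdk4 and Ucp3 among them), against 7.15% of all genes. Acot1 alone was lower with each compound in Study 2 (0.137% of all genes with Cpd2 and 0.437% with Cpd6). With Cpd6 in Study 4 there were 4 higher (Pdk4 and Ucp3 among them) and 2 lower (Acot1 and Vnn1). Of all genes 8.88% were lower there and 12.2% were called in either direction. Acot1, a cytosolic thioesterase, changed by -1.22, -0.94, -1.21 and -1.47 in the same order of comparisons. Pdk4, a kinase that restrains pyruvate oxidation, differed by -0.92 with Cpd2 in Study 1 and by 0.33 with Cpd6 in Study 4. Muscle markers were low in the former comparison. In the latter 5 of 21 muscle markers were called higher (12.2% of all genes called in either direction). The part of muscle in the Pdk4 differences was not tested.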

How the data were processed

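The authors measured skin RNA of 48 mice on custom Affymetrix arrays and made the deposited intensity values with RMA (background correction, normalization and probeset summary; version not given in the sources used here), so the values are linear intensities, from 1.60 to 13570, in which detection calls and the absent filter of the methods could not be repeated. Here the intensities of 38385 probesets were put on the log2 scale. Probesets under the 25th percentile of mean log2 intensity were left out. Groups came from the sample labels. The fits, 1 per study with 1 mean per group, used limma (version 3.58.1, under R 4.3.3) with an eBayes intensity trend and Benjamini-Hochberg adjustment over the 28789 probesets left. Differences between studies came from 1 fit over the 48 arrays. No 2 arrays were identical. Of the probesets 24478 name 1 gene, 65 several and 13842 none.

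Members and marker lists were chosen with earlier results of these data known. All members called in at least 1 comparison with vehicle are named. Acox2, Crat and the other members called in at least 2, by size, have values of every group. The script was tested on simulated data. Upstream sequences are from RefSeq (GRCm38.p6). Plots came from matplotlib 3.10.9 (Python 3.11.15), tables from pandas 2.3.3 and numpy 2.4.6. Labels name animals only as replicates, so p-values measure the spread between these samples. The alternatives are other filters, normalizations and variance models, the methods' t-test, 1 joint fit, the replicate number as a block, any probeset of a gene, muscle or hair follicle covariates and leaving out each mouse. Leaving out 3 low-muscle mice was added after the data were seen. Histology and exposure are not analysed here.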

Additional observations from a re-analysis of the deposited data

Results flagged for a closer look

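Among the 16 called genes, 144 sets of a gene in a group were tested for a single mouse far from the others, and 15 were found. For independent sets chance gives about 5%, but these genes share the same mice, so that rate cannot judge the count. Of the 15, 8 were vehicle replicate 4 of Study 1. It was the lowest of its group for Abcd3 (11.15), Acox3 (9.413), Crat (6.286), Hacl1 (7.992), Pex11a (9.142), Pex11g (8.661) and Phyh (9.753), and the highest for Crot (9.6). The same mouse had the lowest sebaceous gland and muscle means and the highest hair follicle mean of its group, and the part of these in its values was not tested.

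In Study 1, Cpd2 replicate 1 was highest for Acox3 (9.588) and Cpd1 replicate 8 lowest for Far1 (9.46). In Study 2, vehicle replicate 4 was lowest for Pex11a (9.293) and Scp2 (11.55). In Study 4, vehicle replicate 4 (10.05) and Cpd18 replicate 1 (9.962) were highest for Pex3, and Cpd6 replicate 4 was lowest for Scp2 (11.38).

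The Cpd2 effect differed between Studies 1 and 2, by limma's test of the difference, for Pex11a (-0.6531) and Phyh (-0.6587), each with an adjusted p of 0.0430.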

How the results depend on the processing

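The 13 members called with Cpd2 in Study 1 became 6 with muscle markers as a covariate and 8 without 3 Cpd2 mice (an alternative chosen after seeing the data), and 12 to 19 when single mice were left out. With Cpd1 the count of 0 became 1 by the methods' t-test at p under 0.01 and fold over 1.2, 1 in 1 fit over all 48 samples, 1 with the muscle and 2 with the hair follicle covariate, and stayed 0 with single mice left out. With Cpd2 in Study 2 the count of 1 became 2 with the 50th percentile filter, quantile normalization or the fit over all samples, 3 by the methods' t-test, and 0 by that test after Benjamini-Hochberg, without the intensity trend, with the replicate block or with the hair follicle covariate (0 to 2 with single mice left out, 0 without Cpd2 replicate 1, 2 or 3 and 2 without Cpd2 replicate 4 or vehicle replicate 1 or 4). With Cpd6 in Study 2 the count of 3 became 5 by the methods' t-test and 0 after Benjamini-Hochberg (2 to 4 with single mice left out). With Cpd6 in Study 4 the count of 10 became 4 in the fit over all samples and 4 with the hair follicle covariate (5 to 11 with single mice left out, 5 without Cpd6 replicate 4 and 6 without vehicle replicate 4). Against Cpd18 the count of 3 became 5 with the 50th percentile filter or the muscle covariate, 9 by the methods' t-test and 1 after Benjamini-Hochberg (2 to 5 with single mice left out, 5 without Cpd18 replicate 1). The Cpd2 difference between studies went from 2 to 0 without a filter, without the trend, with either covariate or without the 3 mice (0 to 11 with single mice left out, 11 without vehicle replicate 4 and 4 without Cpd2 replicate 1 of Study 1). The cause was not tested. No named change reversed under these settings, which keep the brightest probeset (the dimmer Crot probeset lies in the other direction, uncalled), and no setting moved the median of all genes by over 0.1. Deviations from the group means correlated above 0.1 in 5 of 24, 3 of 12 and 7 of 12 same-number pairs in Studies 1, 2 and 4. The median of these pairs was -0.0379 against 0.0146 for other pairs in Study 1, and -0.0298 against 0.0103 in Study 2. In Study 4 it was 0.108 against -0.0443, so same-number mice were more alike there, and the reason was not tested. With the replicate block the counts were 14 for Cpd2 in Study 1, 0 for Cpd2 and 2 for Cpd6 in Study 2, and 10 for Cpd6 in Study 4. Detection above background could not be judged from these values.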
